A study of Mus musculus with 14 samples.

Results

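The genes of the proteasome were described in mammary tissue of lactating mice. Members were all genes whose symbol starts with *Psm*, followed by a letter from a to g and a number, which gave 48 of the 20515 genes with a usable symbol. Of these, 47 encode subunits of the proteasome, or proteins that activate, inhibit or assemble it. The exception is *Psmc3ip*, a meiotic recombination factor that shares the symbol through its binding partner. By role, the members were 7 subunits of the alpha ring, 4 of the beta ring without a protease site, 3 constitutive protease subunits, 3 immunoproteasome subunits, 6 ATPases and 3 other subunits of the base, 8 subunits of the lid, 4 activators, 1 inhibitor, 3 assembly chaperones of the base, 4 assembly chaperones of the core, the germ-cell subunit *Psma8*, and *Psmc3ip*. The alpha ring, beta ring, constitutive protease, base and lid genes together are the 31 constitutive subunits of the 26S proteasome covered by the rule. The thymus subunit gene *Psmb11* and the *Psme2* copy *Psme2b* are not analysed here.

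The proteasome degrades proteins that have been marked with ubiquitin chains. Its core particle (20S) is a barrel of alpha and beta rings with the protease sites inside, and its regulatory particle (19S) consists of a base, whose ATPases unfold the substrate, and a lid, which removes the ubiquitin. Interferon induces a second set of protease subunits that replace the constitutive ones during assembly and change the peptides that are made, and immune cells carry this immunoproteasome without induction.

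Total RNA was sequenced from mammary glands on day 10 of lactation (L10) in 2 heterozygous mice of one genotype, labelled WT_wTbrg4. These wt/Wap-Tbrg4 mice, made in C57BL/6 zygotes with CRISPR-Cas9, carry one wild-type allele and one on which a deletion joined the *Wap* super-enhancer, promoter and first exon to *Tbrg4*. The fused allele is driven by a promoter of milk-secreting cells, mice homozygous for it were not viable, and the age of the mice is not given in the sources used here. Wild-type mice and the ChIP-seq samples of the study are not analysed here, so every value below describes one genotype and has no control. The deposited values are FPKM, fragments per kilobase of sequence scaled for each library by a total that is not given in the sources used here. They have 1 decimal and are separate for the exons and the introns of each gene. FPKM is per length, so levels of different genes were set side by side, but without a correction for their GC content. No counts are given, so the depth is unknown, errors are the SD of the 2 mice, and no test was made, because the smallest two-sided p that an exact test on 2 mice can give is 0.5. Replicate numbers only name the mice.

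The milk genes *Csn2*, *Wap* and *Lalba* and the secretory-cell factor *Elf5* were all expressed. In replicates 1 and 2, exon FPKM was 108555 and 481937 for *Csn2*, and 172935 and 234774 for *Wap*. It was 8453.5 and 8265.4 for *Lalba*, and 185.8 and 204.8 for *Elf5*. The log2 ratio of *Csn2*, replicate 2 over replicate 1, was 2.15, and 1.87 after the GC correction described with the comparison of the mice. *Tbrg4* had an exon FPKM of 314.7 and 291.5. The 10 highest genes held 79.5% and 90.6% of the summed exon FPKM, and the sums themselves were 852961 and 1788119. The 48 members added up to an exon FPKM of 1009 in replicate 1 and 857.5 in replicate 2. That was 0.118% and 0.0480% of all genes, and 0.577% and 0.509% of the sum outside the 10 highest genes.

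Proteasome genes were among the more abundant transcripts of the gland below the milk genes. Of the 48 members, 46 averaged an exon FPKM of 1 or more, a level reached by 9845 genes, and *Psma8* and *Psmc3ip* did not. By this mean, 18 members lay at 20 or more, 14 between 10 and 20, 6 between 5 and 10, and 8 between 1 and 5. The median of the 31 constitutive subunits was 24.6 in replicate 1 and 19.7 in replicate 2 (22.2 ± 3.46, SD, n = 2). In comparison, the median of all genes at or above 1 was 6.0 and 5.3, and the constitutive median stood at the 87.3 and 84.8 percentile of these genes.

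**Figure D1:**
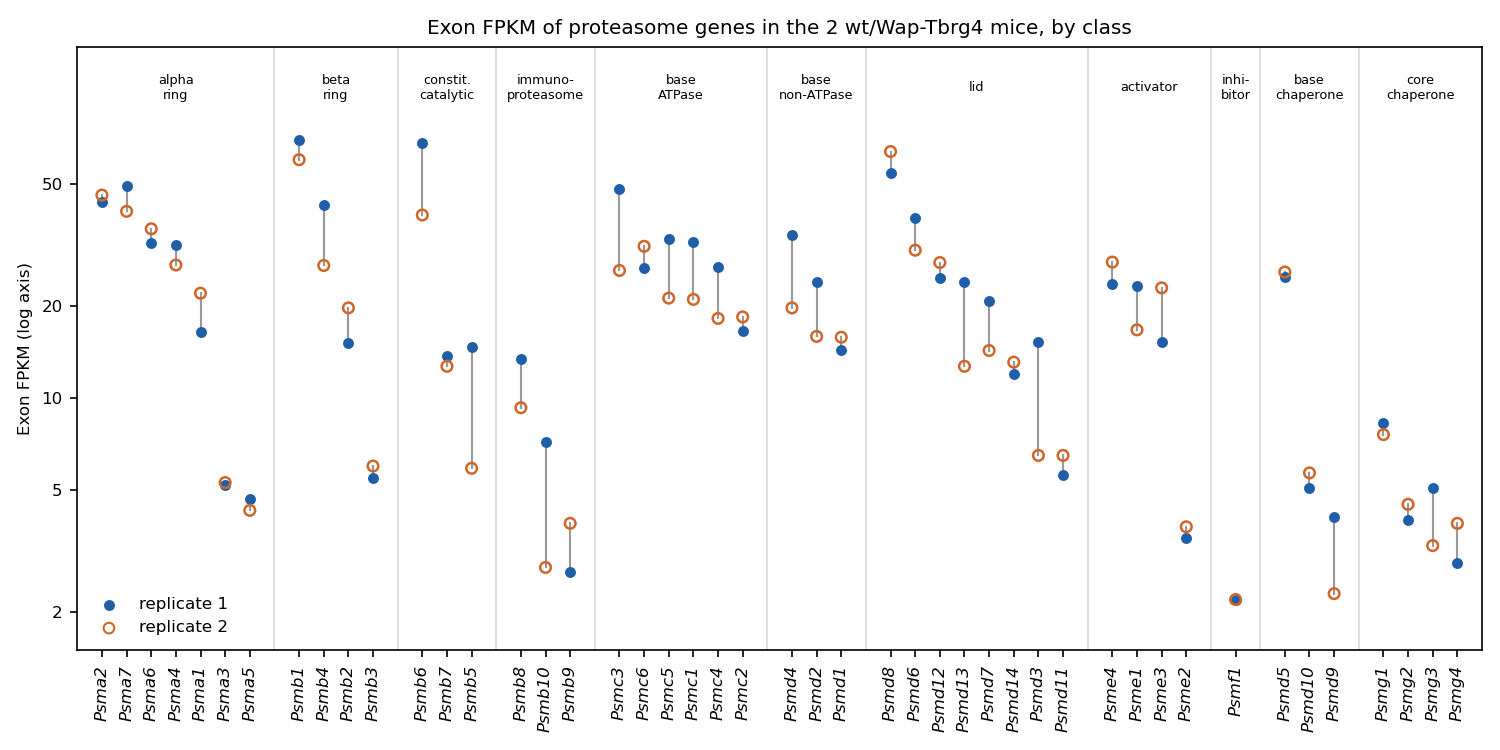
Exon FPKM (log axis) of the 46 proteasome genes with a mean of at least 1, grouped by role, with one point for each mouse and a line joining the 2 mice. Most core and regulatory subunits lie between 10 and 69.4, whereas *Psma3*, *Psma5*, *Psmb3* and *Psmd11* and all 4 core chaperones lie below 10 in both mice.

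The alpha ring closes the ends of the core particle and opens when a regulator binds. The highest of its 7 genes were *Psma2*, with an exon FPKM of 43.8 and 46.0 in replicates 1 and 2, and *Psma7*, with 49.1 and 40.7. The lowest were *Psma3* (5.2 and 5.3) and *Psma5* (4.7 and 4.3). The other three, *Psma6*, *Psma4* and *Psma1*, lay between 16.4 and 35.7. *Psma3* and *Psma5* thus stood below the rest of the ring in both mice by far more than the mice differed, although the ring holds each alpha subunit in equal number. *Psma8*, which replaces *Psma7* in male germ cells, was at 0.2 and 0.0, with introns listed at 0.

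The 4 beta-ring genes without a protease site ran from 5.5 to 69.4, compared with 4.3 to 49.1 in the alpha ring. *Psmb1* had the highest mean of all members, with 69.4 and 60.0 (64.7 ± 6.65, SD, n = 2), rank 349 of all genes. *Psmb4* was at 42.7 and 27.1, *Psmb2* at 15.1 and 19.7, and *Psmb3* at 5.5 and 6.0. *Psmb3* was lower than the other three in both mice, and *Psmb1* was higher.

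The protease sites lie on 3 of the beta subunits. *Psmb6* (caspase-like activity, chromosome 11, 70525324 to 70527858) had an exon FPKM of 68.1 and 39.6, a mean of 53.9 ± 20.2 (SD, n = 2). *Psmb7* (trypsin-like activity, chromosome 2, 38588046 to 38643952) was at 13.7 and 12.7. *Psmb5* (chymotrypsin-like activity, chromosome 14, 54614120 to 54617995) was at 14.7 and 5.9, a mean of 10.3 ± 6.22. *Psmb6* was the highest of them in both mice, while *Psmb5* and *Psmb7* changed places between the mice, so that their order cannot be given. All coordinates are those of GRCm38.

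The immunoproteasome subunits were lower than most constitutive ones but were expressed in both mice. *Psmb8* (LMP7, chromosome 17, 34198195 to 34201454) had an exon FPKM of 13.4 and 9.3. *Psmb10* (MECL-1, chromosome 8, 105935728 to 105938392) had 7.2 and 2.8, and *Psmb9* (LMP2, chromosome 17, 34182030 to 34187330) had 2.7 and 3.9. *Psmb8* was the highest of them in both mice, and *Psmb9* and *Psmb10* changed places.

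Each immunoproteasome subunit takes the place of one constitutive subunit, and the 3 pairs differed widely in their ratios. The exon FPKM of *Psmb9* was 0.0396 and 0.0985 of that of its counterpart *Psmb6*, and it made up 3.81% and 8.97% of the pair. *Psmb10* was 0.526 and 0.220 of *Psmb7* and made up 34.4% and 18.1%. *Psmb8* was 0.912 and 1.58 of *Psmb5* and made up 47.7% and 61.2%. On the log2 scale the means were -4.0 ± 0.93 for *Psmb9*/*Psmb6*, -1.55 ± 0.89 for *Psmb10*/*Psmb7* and 0.26 ± 0.56 for *Psmb8*/*Psmb5* (SD, n = 2). *Psmb9* and *Psmb10* were therefore below their counterparts in both mice, whereas the sign for *Psmb8* differed between the mice. The *Psmb8*/*Psmb5* ratio also rests on a *Psmb5* value whose exons recur in the pseudogene *Gm3375*, and 109 bp of *Psmb5* are also annotated as the microRNA gene *Mir686* on the same strand.

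**Figure D2:**
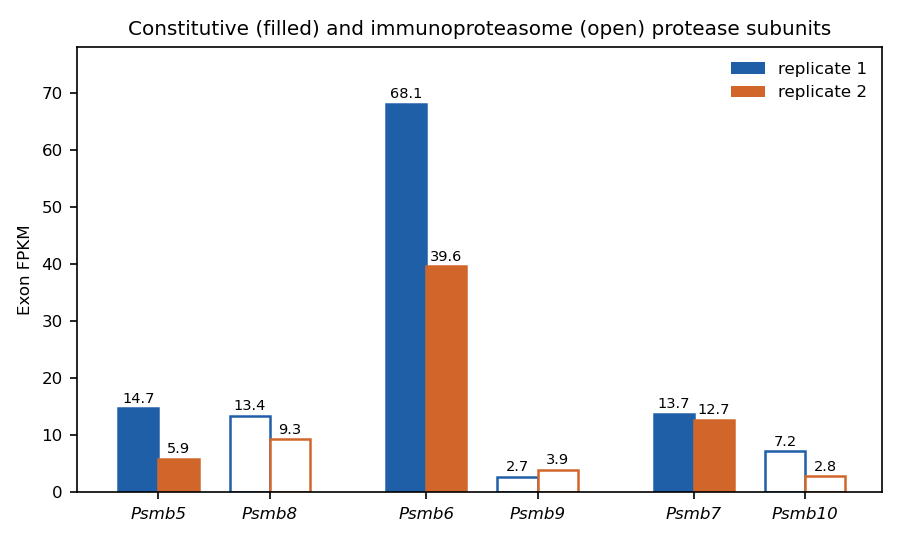
Exon FPKM of the 3 constitutive protease subunits (filled bars) beside the immunoproteasome subunit that replaces each (open bars), with one bar for each mouse. *Psmb6* exceeds *Psmb9* in both mice (68.1 and 39.6 against 2.7 and 3.9), whereas *Psmb5* and *Psmb8* cross.

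Mammary tissue holds leukocytes beside the epithelium, and the mRNA of both is summed in these libraries. Of 5 leukocyte markers, 3 averaged an exon FPKM of 1 or more. These were *Ptprc* (3.0 and 3.2), *Cd68* (2.6 and 1.9) and *Cd74* (154.4 and 93.4), whereas the T-cell gene *Cd3e* (0.0 and 0.1) and the B-cell gene *Cd79a* (0.0 and 0.4) were near 0. The summed leukocyte marker level was 160.0 and 99.0, and nearly all of this sum and of its difference came from *Cd74*. *Ptprc*, carried by all leukocytes, was slightly higher in replicate 2, and the log2 ratio of *Cd74* between the mice was -0.72 as deposited and -0.23 after correction for GC content. Fewer cells of a type and less RNA per cell cannot be told apart in such tissue, and the part of leukocytes in the *Psmb8*, *Psmb9* and *Psmb10* levels was not tested.

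The genes that load and respond to immunoproteasome peptides gave no common direction between the mice. The peptide transporter genes *Tap1* and *Tap2* had an exon FPKM of 4.0 and 3.1, and of 25.0 and 9.0. Tapasin (*Tapbp*) was at 40.3 and 32.9 and beta-2 microglobulin (*B2m*) at 202.4 and 432.8. The interferon pathway factor *Irf1* was expressed at 8.6 and 5.7, and *Nlrc5*, an activator of MHC class I genes, was at 1.0 and 0.6. Of the 8 genes on this list, 7 had a mean of at least 1. *Tap2* was more than 2-fold higher in replicate 1 and *B2m* more than 2-fold higher in replicate 2, where 5.9% of all genes differed more than 2-fold in either direction. After correction for the GC content of exons, as described with the comparison of the mice, both were within 2-fold, with log2 ratios of replicate 2 to replicate 1 of -0.71 for *Tap2* and 0.77 for *B2m*.

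Promoter sequences of the protease genes are shown for the recognition motifs of factors known to act on proteasome or interferon-responsive genes. RefSeq windows on GRCm38.p6 ran from 250 bases before to 50 bases after the transcript start. They were used for 40 of the 48 members, which have 43 windows in all. None was used for *Psma8*, *Psmb1*, *Psmb2*, *Psmb7*, *Psmc3*, *Psmd3*, *Psmd7* and *Psmg2*, so their promoters were not searched. Both strands were searched for 5 motifs. These were the antioxidant response element TGACNNNGC read by the proteasome gene activator NRF1, the box CCAAT, the STAT motif TTCNNNGAA, the interferon-stimulated element (the letters GAAA repeated in the same direction with 2 bases of any kind between the repeats), and the cAMP response element TGACGTCA. In the lines that follow, capitals mark the match, the strand is that of the gene, and *Psmb9* carries CCAAT on the opposite strand.
Psmb5 (chr14:54618025-54618051, minus strand): gtgaagttgTGACGTCGCggcgttgcc
Psmb6 (chr11:70525339-70525365, plus strand): taaagagagTGACGGAGCgctttacga
Psmb8 (chr17:34198089-34198115, plus strand): cctccgctgTTCCCAGAAgatgccccc
Psmb9 (chr17:34187325-34187347, minus strand): cagccgctgATTGGaaagccgag

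The antioxidant response element was found in 6 of the 43 member windows (14%), in *Psmb5*, *Psmb6*, *Psmc6*, *Psmd12*, *Psmd9* and *Psme4*. It was found in 12.4% of all 32851 promoter windows searched. The CCAAT box was found in 32.6% of member windows and 37.4% of all, the STAT motif in 6.98% and 8.30%, and the interferon element in 5 member windows (11.6%) against 3.44%. The last 5 were *Psmb3*, *Psmd4*, *Psmd9*, *Psme1* and *Psmg4*, and none of them encodes an immunoproteasome subunit. The cAMP response element was in no member window and in 1.79% of all. The window of *Psmb10* held none of the 5 motifs. A match is a description of letters in this window, and no binding was measured.

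The 6 ATPases form the ring that unfolds substrates and threads them into the core, and they were the most even of the larger classes. The highest by mean were *Psmc3* (48.3 and 26.1) and *Psmc6* (26.6 and 31.3). The lowest were *Psmc4* (26.7 and 18.2) and *Psmc2* (16.6 and 18.4). *Psmc3* led in replicate 1 and *Psmc6* in replicate 2, and *Psmc4* was lowest in replicate 2 but not in replicate 1, so the order within the ring was not kept. The highest of the 6 exceeded the lowest 2.91-fold in replicate 1 and 1.72-fold in replicate 2, compared with 14.8-fold among the 31 constitutive subunits in each mouse.

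The other base subunits recognise ubiquitin or hold the ring. The ubiquitin receptor *Psmd4* was at 34.0 and 19.7. *Psmd2*, a large scaffold that also binds shuttle proteins, was at 23.9 and 15.9, and *Psmd1*, the other large scaffold, at 14.4 and 15.8. *Psmd4* was the highest and *Psmd1* the lowest in both mice, with *Psmd2* and *Psmd1* only 0.1 apart in replicate 2. A further receptor, *Adrm1*, carries no *Psm* symbol and was at 3.1 and 1.2, but only 16.8% of its 50-base exon windows occur once in the genome. *Sem1*, the gene of a small subunit of the lid and also without a *Psm* symbol, was at 144.9 and 74.7, above every member in both mice.

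The lid removes the ubiquitin chain before the substrate is degraded. Its highest genes among the members were *Psmd8* (54.2 and 63.8) and *Psmd6* (38.7 and 30.4). Its lowest were *Psmd3* (15.3 and 6.5) and *Psmd11* (5.6 and 6.5). The deubiquitinase itself, *Psmd14*, was at 12 and 13.1, and its partner *Psmd7* at 20.8 and 14.3. *Psmd8* was the highest lid gene among the members in both mice, while *Psmd3* and *Psmd11* were level in replicate 2 and apart in replicate 1. *Psmd12* and *Psmd13* lay between 12.7 and 27.7.

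The activators open the core without or beside the 19S particle. *Psme1* and *Psme2* encode the alpha and beta chains of PA28, which is induced by interferon and combines with the immunoproteasome. *Psme1* was at 23.2 and 16.7, and *Psme2* at 3.5 and 3.8, or 0.151 and 0.228 of *Psme1*. In introns the order was the opposite, with 0.1 and 0.3 for *Psme1* and 0.4 and 0.5 for *Psme2*. The nuclear activators were *Psme3* (PA28 gamma), at 15.2 and 22.9, and *Psme4* (PA200), at 23.6 and 27.8. *Psme2* was the lowest activator in both mice by more than their spread, and its 50-base exon windows were 54.0% unique. The inhibitor gene *Psmf1* was low, at 2.2 in both mice.

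Genes for assembly were below most of the subunits that they assemble, except *Psmd5*. The core chaperones were *Psmg1* (8.3 and 7.6), *Psmg2* (4.0 and 4.5), *Psmg3* (5.1 and 3.3) and *Psmg4* (2.9 and 3.9), with a median of 4.55 and 4.2 against 24 and 24.6 for the 14 constitutive core subunits. *Psmg1* was the highest of them in both mice. Of the base chaperones, *Psmd10* (gankyrin) was at 5.1 and 5.7 and *Psmd9* at 4.1 and 2.3, whereas *Psmd5* was at 24.8 and 25.8, above the constitutive median in both mice. *Pomp*, the maturation factor of the beta ring, has no *Psm* symbol and was at 12.3 and 12.5. *Akirin2*, which imports proteasomes into the nucleus, was at 5.3 and 8.9, and the adaptor *Ecpas* at 9.0 and 9.6.

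The lowest constitutive subunits were genes with near-identical copies in the genome. A copy was counted where the coding sequence aligned elsewhere over at least 50% of its length with at least 95% identity. By this definition, 10 members had copies, 3 of them 2 copies and 7 of them 1 copy, and 38 had none. All copies were annotated as pseudogenes in RefSeq, except *Psme2b*, which is annotated as protein-coding. Reads that fit both places may be dropped or split, and how the authors treated them is not given in the sources used here. The 5 constitutive subunits with the lowest mean, *Psma5*, *Psma3*, *Psmb3*, *Psmd11* and *Psmb5*, all had a copy. The next one up, *Psmd3* (10.9 ± 6.22, SD, n = 2), had none.

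How close these copies are is shown by 30-base coding windows of 5 members, each above the same stretch of one of its copies. The windows are the first along each coding sequence, within one exon, that differ from the copy at position 15 alone, counted from the 5′ end. Capitals mark that base, and each is given on the strand of the gene on GRCm38.
Psma3 (chr12:70978738-70978767, plus strand): cttgtcagcctctaCgttctctcctgatgg
Gm4742 (chr14:52369633-52369662, minus strand): cttgtcagcctctaGgttctctcctgatgg
Psma5 (chr3:108261720-108261749, plus strand): tttcaagtggaataTgccattgaggctatc
Psma5-ps (chr10:85313632-85313661, plus strand): tttcaagtggaataCgccattgaggctatc
Psmb3 (chr11:97706812-97706841, plus strand): agttccgactgaacTtgtatgagctgaaag
Gm6467 (chr16:21896708-21896737, plus strand): agttccgactgaacCtgtatgagctgaaag
Psmb5 (chr14:54617871-54617900, minus strand): gtccggggagtcctGgtgatgggctgagcc
Gm3375 (chr7:3181184-3181213, plus strand): gtccggggagtcctAgtgatgggctgagcc
Psme2 (chr14:55589334-55589363, minus strand): cttctggccttgctCgctttggttaagcca
Psme2b (chr11:48945792-48945821, minus strand): cttctggccttgctTgctttggttaagcca

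The substitutions, from gene to copy, were C15G in *Psma3*, T15C in *Psma5*, T15C in *Psmb3*, G15A in *Psmb5* and C15T in *Psme2*. Over the aligned coding sequence the identity was 96.5% for both copies of *Psma3*, 98.9% for *Psma5-ps*, 97.4% for *Gm6467*, 98.9% for *Gm3375* and 99.3% for *Psme2b*.

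The 3 constitutive subunits with 2 copies, *Psma3*, *Psma5* and *Psmb3*, lay between 4.3 and 6.0 in exons, with a median of 5.2 and 5.3. The 22 without a copy, which include *Psmb7* with 75.7% unique exon windows, had a median of 26.7 and 21.6. In introns, which the copies lack, the order did not follow, with a median of 0.6 and 0.6 for the 3 genes against 0.45 and 0.55 for the 22. A copy did not always go with a low exon value. The 6 constitutive subunits with 1 copy had a median of 27.8 and 18.5, and among these *Psma4*, named here after its value was seen, was at 31.6 and 27.2 with 51.8% unique exon windows. Across the 31 genes, the share of unique windows and exon FPKM had a Spearman rho of 0.39 and 0.41, where all points come from the same libraries. *Psma4*, *Psmd10* and *Psme1* also overlap a gene on the opposite strand by 45, 54 and 4 bp, and whether the counting used strand is not given in the sources used here. The part of the copies in the exon values was not tested.

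**Figure D3:**
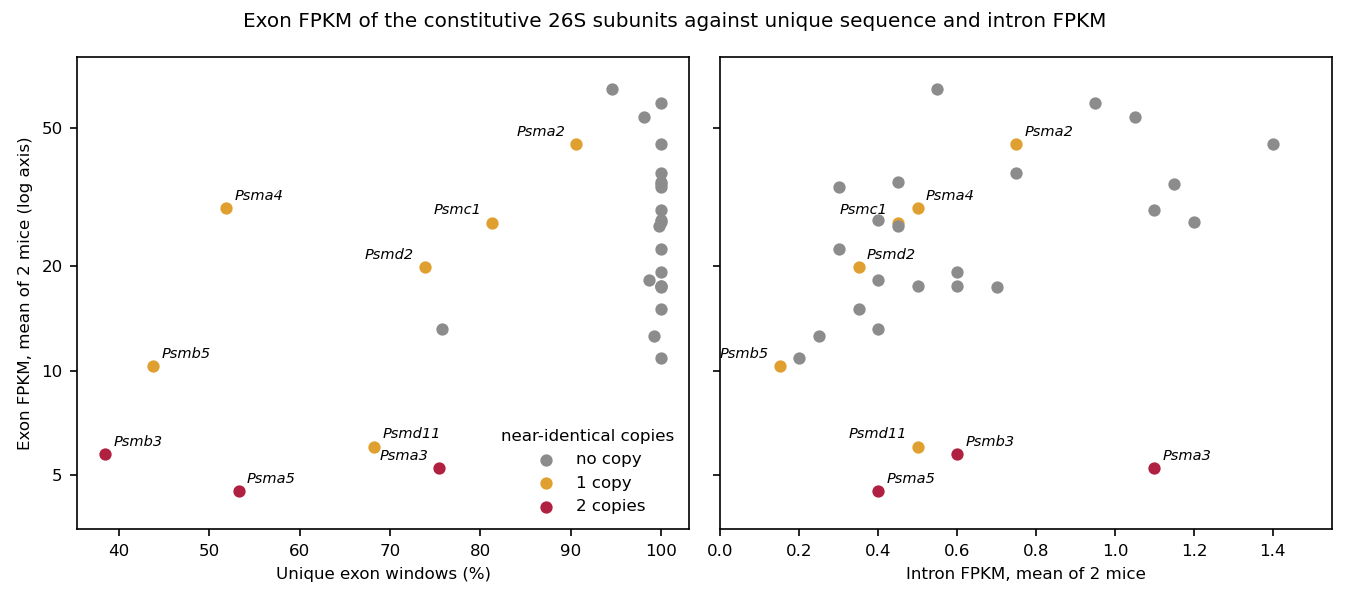
Mean exon FPKM of the 31 constitutive 26S subunits (log axis) against the percentage of their 50-base exon windows that occur once in the genome (left) and against mean intron FPKM (right), coloured by the number of near-identical copies. The 3 genes with 2 copies lie at mean exon values of 4.5 to 5.75 in both panels but at intron values of 0.4 to 1.1, inside the range of the others.

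Subunits that enter the particle in equal number were spread over a wide range of mRNA levels. The SD over genes of log2(FPKM + 1) was 1.00 and 0.97 for the 31 constitutive subunits. It was 0.75 and 0.74 for the 22 of these without a copy, and 0.49 and 0.29 for the ATPases alone. For comparison, the same SD was 0.94 and 0.88 over the 8 genes of the CCT chaperonin, a ring of 8 different subunits, and 0.75 and 0.73 over the 8 genes of the COP9 signalosome, a relative of the lid. The 7 COP9 genes without a copy had an SD of 0.71 and 0.69, and all 8 CCT genes were without a copy. Over genes without a copy, the SD of the subunits thus lay between those of COP9 and CCT in both mice. These SDs are descriptions over genes of the same libraries.

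Intron reads come from RNA that is not yet spliced, and the intron FPKM of members was low in absolute terms. Intron FPKM ran from 0.0 to 1.6 over the 46 expressed members, and 60 of the 92 values were at or below 0.5, where the single decimal leaves only a few steps. The 2 mice differed by at most 0.1 for 28 of the 46 members. The median of the 31 constitutive subunits was 0.5 in both mice, and that of all 9845 genes at or above 1 in exons was 0.4 in both. Among genes that averaged 10 or more in exons, the constitutive subunits were lower. The median of these 27 was 0.5 in both mice, against 0.7 and 0.8 for all 3112 genes at that level. Only 8 members reached 1.0 in either mouse. The highest single values were those of *Psmd6* (0.7 and 1.6) and *Psma7* (1.3 and 1.5). *Psmb8*, in contrast, was at 0.1 in both mice and *Psmb9* at 0.3 in both, although *Psmb8* had the higher exon value.

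Relative to their exons, introns of the constitutive subunits were low. The log2 ratio of intron to exon FPKM, with 0.1 added to both, had a median that was -5.57 and -4.86 for the 31 constitutive subunits. For the 27 of them that averaged 10 or more in exons it was -5.60 and -4.99, compared with -4.69 and -4.60 for all 3112 genes at that level. The difference from the median of all genes was therefore 0.91 in replicate 1 and 0.39 in replicate 2, lower in both mice. The 8 CCT genes, all above 10, stood lower still, at -6.30 and -5.59. The 8 COP9 genes were at -4.48 and -4.84, but without that filter, since *Cops5* and *Gps1* averaged 7.6 and 6.8.

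Among members at or above 10, the ratio was lowest for *Psmb1* (-6.68, at the 5.98 percentile of the 3112 genes), *Psma6* (-6.41, at 8.26) and *Psmb4* (-6.33, at 9.13). It was highest for *Psmd4* (-4.34, at the 62.1 percentile), *Psmb2* (-4.45, at 57.9) and *Psme4* (-4.55, at 53.3). *Psma6* had intron values of 0.3 in both mice, whereas those of *Psmb4* were 0.8 and 0.1, and its ratio differed accordingly (-5.57 and -7.09). *Psma3* (-2.18), the inhibitor *Psmf1* (-2.52) and *Psme2* (-2.77) had the highest ratios of all 46 expressed members, and both *Psma3* and *Psme2* are genes with copies. Exon and intron FPKM had a Spearman rho of 0.44 and 0.45 across the 31 constitutive subunits, and of 0.61 and 0.56 across the 22 without a copy. It was 0.62 and 0.60 across all genes at or above 1.

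The 2 mice agreed within 2-fold for most members. Exon FPKM + 1 differed more than 2-fold in 3 of the 46 expressed members (6.52%), against 5.9% of all 9845 genes at or above the same level. All 3 were higher in replicate 1, where the background in that direction was 4.82%. These were *Psmb5* (14.7 and 5.9, 2.28-fold), *Psmd3* (15.3 and 6.5, 2.17-fold) and *Psmb10* (7.2 and 2.8, 2.16-fold). Just inside the threshold were *Psmc3* and *Psmd13*, both 1.82-fold higher in replicate 1. In all, 24 members were higher in replicate 1, 21 in replicate 2 and *Psmf1* was equal. The median log2 ratio of replicate 2 to replicate 1 was -0.10, against -0.08 for all genes, and the median size of the ratio was 0.30 against 0.33. As deposited, the median size of the difference was thus close to that of all genes.

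The difference between the mice went with the GC content of the exons. Across the 46 members, GC content and the log2 ratio had a Spearman rho of -0.48, and across 9839 genes it was -0.66. Of the 23 members at or above the median GC content of 50.2%, 17 were higher in replicate 1 and 6 in replicate 2, with a median ratio of -0.53. Of the 23 below it, 7 were higher in replicate 1 and 15 in replicate 2, with a median of 0.12. *Psmb5*, *Psmb10* and *Psmd3* had GC contents of 56.6%, 56.5% and 58.3%. After the relation to GC content was removed with a lowess fit over all genes, 0 of the 46 members differed more than 2-fold, compared with 1.91% of all genes (0.793% higher in replicate 1), and the largest remaining ratio was that of *Psmb9* (0.95). The median size of the corrected ratio was 0.32 in members and 0.23 in all genes, and its median was -0.13 in members and 0.00052 in all genes. The cause of the GC relation was not tested.

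**Figure D4:**
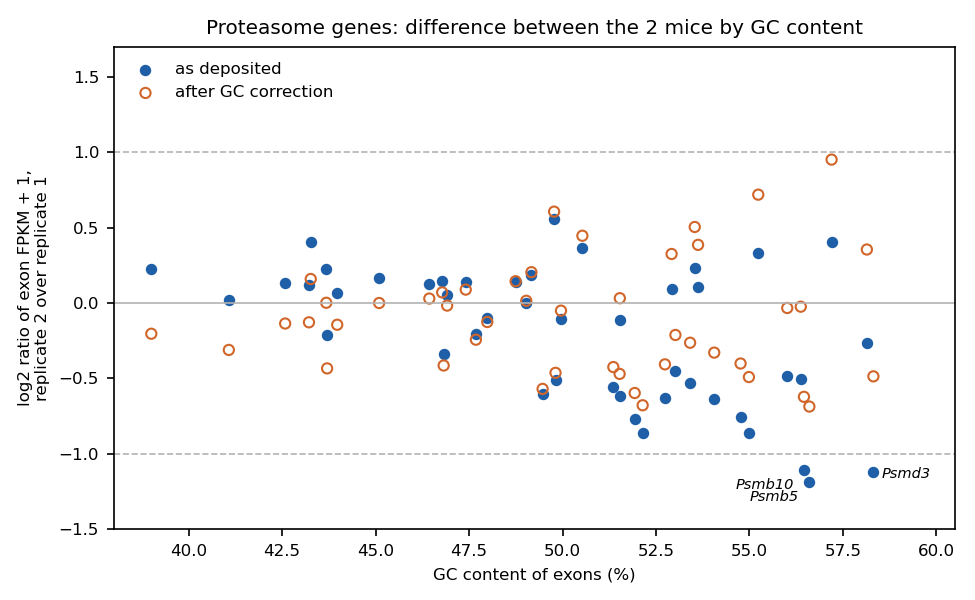
Log2 ratio of exon FPKM + 1 between the mice for the 46 expressed members against the GC content of their exons, as deposited (filled) and after removal of the relation to GC content (open). Dashed lines mark 2-fold, and *Psmb5*, *Psmb10* and *Psmd3* pass it as deposited, whereas no member does after the correction.

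The activator pathway of proteasome genes was expressed in both mice. Its factor NRF1 (*Nfe2l1*) had an exon FPKM of 27.8 and 17.0, and the related *Nfe2l2* 20.5 and 22.9. NRF1 is released from the endoplasmic reticulum by *Vcp* (17.8 and 15.6), deglycosylated by *Ngly1* (10.6 and 11) and cut by *Ddi2* (11.3 and 5.5). Only 23.2% of the 50-base exon windows of *Vcp* occur once in the genome. Of the 3539 exon bp of *Ddi2*, 2069 are also annotated as the gene *Rsc1a1* on the same strand. Of the 9 genes on this list, 2 differed more than 2-fold, the partner genes *Mafg* (11.2 and 4.0) and *Mafk* (15.7 and 5.0), both higher in replicate 1, a direction in which 4.82% of all genes passed that fold. After GC correction the log2 ratios were -0.81 for *Mafg*, within 2-fold, and -1.08 for *Mafk*. The proteasome-bound deubiquitinases *Uchl5* (10.6 and 13.0) and *Usp14* (4.5 and 6.9) and the ligase *Ube3c* (5.2 and 6.0) stayed within 2-fold. So did all 4 listed shuttle receptors, of which *Ubqln1* was the highest at 35.7 and 39.2. *Usp14* overlaps the gene *Thoc1* on the opposite strand by 1870 of its 4360 exon bp.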

How the data were processed

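Libraries from total RNA of 2 wt/Wap-Tbrg4 mammary glands were made with a stranded total RNA kit. The authors mapped reads to mm10 with STAR, counted them on collapsed exons and on introns of UCSC known genes with HTSeq, and made FPKM values with DESeq2, per the labels and the methods of the study. Versions, how multi-mapped reads were handled and the total behind the FPKM are not given in the sources used here. The deposited FPKM values have 1 decimal and were used as they are. Of 20550 genes, 35 were set aside because their symbol was missing, a number or repeated.

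Positions, exons, introns and GC content came from curated RefSeq transcripts on GRCm38.p6, which matched 99.7% of genes and all 48 members. Coding sequences were aligned with minimap2 to count copies, and exon windows of 50 bases were called unique where they occurred once in the primary chromosomes. Mice were compared as log2(FPKM + 1) over genes that averaged 1 or more in exons. The GC correction was a lowess fit over 30% of genes.

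Members, gene lists and windows were chosen with earlier results of these data known. Values are printed for protease subunits, activators, the inhibitor, chaperones, the highest and lowest 2 genes of each other class, members past 2-fold, the 3 highest and lowest intron to exon ratios, and other genes on the lists, some of which are not reported here. Scale, pseudocount, filter, fold, mean, copies and GC content were varied, and each mouse was left out in turn. The work used minimap2 2.31 and Python 3.11.15 with pandas 2.3.3, numpy 2.4.6, numba 0.67.0, statsmodels 0.14.6, scipy 1.17.1 and matplotlib 3.10.9.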

Additional observations from a re-analysis of the deposited data

How the results depend on the processing

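Of 50 alternatives, 9 moved a value, 1 reversed it and 40 did neither. A move was more than the SD of the 2 mice or, for the difference between the mice, which has no SD, more than 1.5-fold in a count or 0.1 in a median. Leaving out a mouse gave a constitutive exon median of 19.7 to 24.6, an intron median of 0.5, a log2 intron to exon ratio of -5.57 to -4.86 and a spread over genes of 0.967 to 1.00. It gave a log2 *Psmb9*/*Psmb6* ratio of -4.66 to -3.34, a *Psmb10*/*Psmb7* ratio of -2.18 to -0.93 and a *Psmb8*/*Psmb5* ratio of -0.13 to 0.66, whose sign reversed to -0.13 without replicate 2. With 2 mice, such a value always stays within 1 SD of their mean, which says nothing about stability. Rescaling each mouse to a common sum likewise cannot change the ratios of the protease pairs, since both genes are scaled alike. The 3 members past 2-fold became 23 after rescaling each mouse to a sum of 1000000, 0 after GC correction and 11 at 1.5-fold. Of all genes, 42.6% passed 2-fold after the rescaling, compared with 50% of members, and 23.7% passed 1.5-fold, compared with 23.9%. The median ratio of replicate 2 to replicate 1 was -1.0 after the rescaling, which put that of all genes at -0.90, and -0.24 among genes with a mean of at least 10. The rescaling follows the milk genes, which hold most of the sum, and put the intron median at 51.1 in place of 0.5, since intron sums are far below 1000000. A pseudocount of 0.5 gave an intron to exon ratio of -4.47, and one of 0.1 gave a spread of 1.04. Without genes that have a copy, an alternative chosen after seeing the data, the spread was 0.748. No paired analysis was possible because both mice belong to 1 group. Counting error could not be given, since the depth is unknown, and differences of 0.1 in introns are 1 step of the deposited values.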

Other observations

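The polyubiquitin gene *Ubb* had an exon FPKM of 32.6 and 25.4 in replicates 1 and 2. *Rps27a*, which encodes ubiquitin fused to a ribosomal protein, had 0.4 and 0.5 in exons and was higher in introns, at 1.6 and 2.0. However, *Rps27a* has 9 near-identical copies, and 48.3% of its exon windows are unique. Its exon value is therefore not given as a level of the gene. *Uba6*, a ubiquitin-activating enzyme gene, was at 2.1 and 3.1. The main activating enzyme gene *Uba1*, which every cell uses, and the smooth muscle gene *Acta2*, a marker of myoepithelium, were listed at 0 in exons and introns of both mice. As a 0 in these values can be a failed estimate, it is not given as a level.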
